A study of Homo sapiens with 10 samples.

Results

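K562 cells that had received CBP30 at 2 µM for 48 h were compared with cells given only its vehicle, DMSO. The table lists 23284 genes, and 12788 of them averaged 0.5 FPKM or more across the 10 samples of the experiment. Of these, 396 small RNA genes were left out, and the other 12392 are the genes described here. K562 is an established human cell line from a chronic myeloid leukemia, and it was grown in RPMI with 10% serum. Each condition had 2 biological replicates: DMSO, CBP30 at 2 or 5 µM, and I-CBP112 at 2 or 5 µM. RNA with a poly(A) tail was sequenced, and the values are FPKM, the fragments of a gene relative to its transcript length and to the mapped reads of the library. No other cell line was measured.

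CREBBP and EP300 are a pair of closely related lysine acetyltransferases that serve as transcriptional co-activators at enhancers and promoters. Each has a bromodomain, a pocket that binds acetylated lysine, and CBP30 and I-CBP112 are small molecules that occupy it. In K562, which holds both erythroid and myeloid properties, GATA1 with its partners drives the erythroid genes, and MYC drives genes for ribosome production, nucleotide synthesis and growth.

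A gene was called when its Benjamini-Hochberg adjusted p in limma, fitted to log2(FPKM + 1) of all 10 samples, was under 0.05 and both treated samples lay beyond both DMSO samples. Fold changes are on this log2(FPKM + 1) scale, on which weakly expressed genes appear to change less than they did, and each is given with its standard error. The treated replicates were not equally close to each other. Replicate 1 of 2 µM CBP30 carried a trend with transcript length that replicate 2 did not carry. When genes were divided by transcript length into 5 equal bins, the median log2 fold change against DMSO in the shortest bin was 0.32 in replicate 1 and 0.02 in replicate 2, and in the longest bin −0.30 and −0.02. The SD over genes of the log2 difference between replicates was 0.328 for 2 µM CBP30 and 0.158 for DMSO. Calls followed the trend, since lower calls made up 7.44% of the shortest bin and 28.1% of the longest. For this reason a stricter set is also given for the totals and for many lists and genes. It holds genes called in the same direction with all samples, with the length trend removed, and with replicate 2 as the only treated sample. Counts given without mention of this set are those of the fit of all samples. These are referred to as called in all 3 fits. In this set the lower share still went from 6.93% to 18.9% between the shortest and longest bins, and the higher share from 17.0% to 7.49%. The part that length has in the remaining difference was not tested. The gene EEF1A1 had a listed value of 0 in that replicate 1 and of 5338 to 6661 FPKM in the other 9 samples. Since this gene is used by every cell, its value is taken as a failed estimate and no fold is given.

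**Figure D1:**
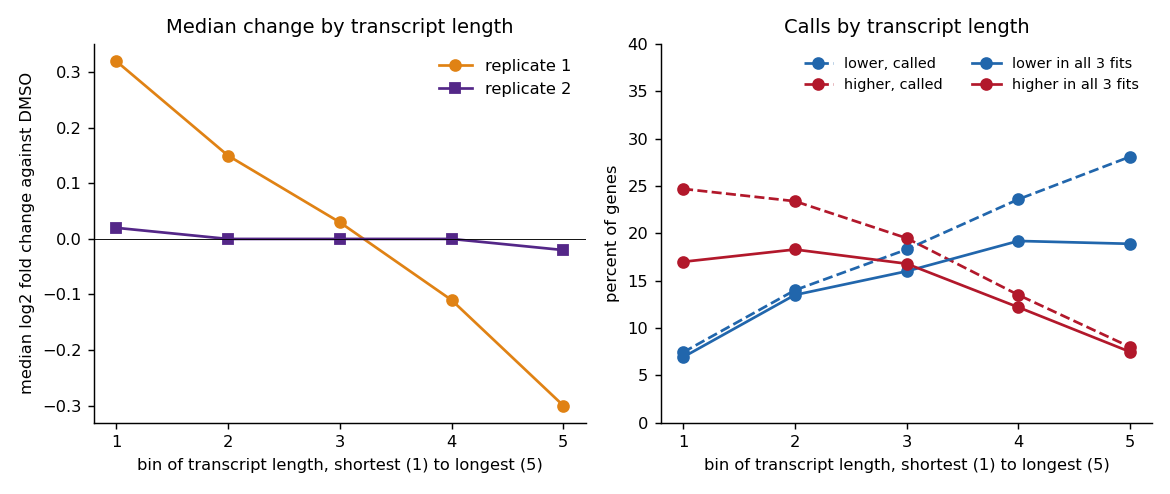
Left, median log2 fold change against DMSO of each treated sample, by bin of transcript length. Right, percent of genes called lower or higher in each bin, with all samples (dashed) and in all 3 fits (solid). Replicate 1 goes from 0.32 to −0.30, and replicate 2 from 0.02 to −0.02.

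With 2 µM CBP30, 2237 genes (18.1% of those tested) were lower and 2189 (17.7%) were higher than with DMSO. The falls took in erythroid factor and globin genes, MYC, and genes of ribosome biogenesis, tRNA charging and nucleotide synthesis. The rises took in genes of the actin cytoskeleton, AP-1 family members, histone genes and genes of CDK inhibitors. In all 3 fits, 1751 genes were lower (14.9% of the 11752 with a transcript length) and 1686 were higher (14.3%). Most changes were small: the median log2 fold change of the lower genes was −0.42 and that of the higher genes 0.42, and 127 genes in each direction changed by at least 1 on the log2 scale. The median over all genes was 0.01. Without either DMSO sample the counts came to 1128 to 1179 lower and 1079 to 1097 higher, and without replicate 2 of 2 µM CBP30 to 3675 and 3902.

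**Figure D2:**
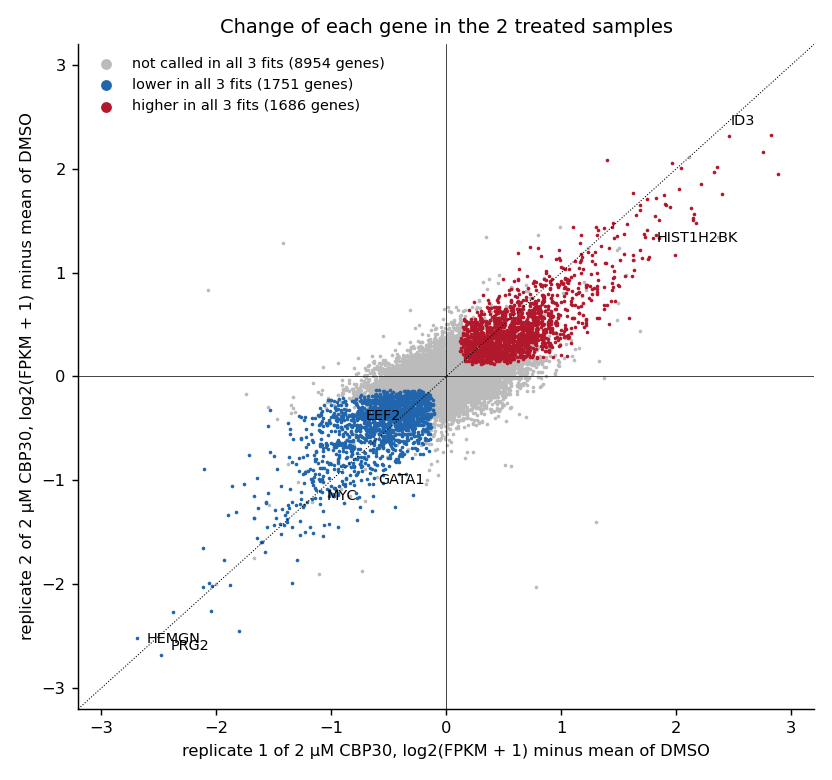
Each point is a gene, with its difference from the mean of DMSO in log2(FPKM + 1) in replicate 1 (horizontal) and replicate 2 (vertical) of 2 µM CBP30. The genes called in all 3 fits, 1751 lower (blue) and 1686 higher (red), lie at the lower left and the upper right.

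The 12 largest falls were led by HEMGN and PRG2. HEMGN, which encodes a nuclear protein of blood progenitors, was at 44.4 and 44.1 FPKM with DMSO and at 6.03 and 6.88 FPKM with CBP30. Its log2 fold change was −2.60 ± 0.085 (SE, adjusted p = 1.0e-06 by limma), and the groups were far apart. PRG2, which encodes the major basic protein of eosinophil granules, went from 14.5 and 17.3 FPKM to 2.03 and 1.63 (−2.58 ± 0.14). GRAP2, an adaptor protein of immune receptor signaling, went from 18.2 and 16.4 FPKM to 2.51 and 2.77 (−2.33 ± 0.084). MS4A3, a membrane protein of myeloid progenitors, was at 45.1 and 48.7 FPKM with DMSO and at 10.0 and 10.7 FPKM with CBP30 (−2.07 ± 0.077). In each of these genes the treated samples lay close together and far below the DMSO samples. PKLR, the pyruvate kinase of red cells and liver, had 12.5 and 12.4 FPKM with DMSO and 2.26 and 2.31 FPKM with CBP30 (−2.03 ± 0.07). DYSF, which encodes dysferlin, a membrane repair protein, fell by 2.02 on the log2 scale, and the amino acid transporter gene SLC6A19 fell by 1.85. The calcium-binding protein gene S100P fell by 1.95, and GLT25D2, which encodes a collagen galactosyltransferase, fell by 1.89. All of these genes were called in all 3 fits.

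The promoters of 4 of these genes, from RefSeq on GRCh38.p14, are shown, to be read for some of the letters that GATA1 and MYC bind. HEMGN is shown as the gene with the largest fall, and MS4A3, PKLR and SLC6A19 because they hold a sequence marked below. The promoters of GRAP2, DYSF and S100P, also among the 12 largest falls, held none of these sequences and are not shown. For the other genes of the 12 no promoter was found. Each line holds the 250 bases before the annotated start, 5′ to 3′ on the strand of the gene: HEMGN at chr9:97944853-97945102 (minus strand), MS4A3 at chr11:60056415-60056664 (plus strand), PKLR at chr1:155301439-155301688 (minus strand) and SLC6A19 at chr5:1201345-1201594 (plus strand). Capitals mark the E-box CACGTG and the GATA sequence AGATAA, or TTATCT where it lies on the other strand.
HEMGN: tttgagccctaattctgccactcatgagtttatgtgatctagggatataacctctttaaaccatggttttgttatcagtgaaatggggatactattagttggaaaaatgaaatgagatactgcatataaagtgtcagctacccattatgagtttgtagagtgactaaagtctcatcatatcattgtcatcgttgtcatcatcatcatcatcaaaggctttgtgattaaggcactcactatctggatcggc
MS4A3: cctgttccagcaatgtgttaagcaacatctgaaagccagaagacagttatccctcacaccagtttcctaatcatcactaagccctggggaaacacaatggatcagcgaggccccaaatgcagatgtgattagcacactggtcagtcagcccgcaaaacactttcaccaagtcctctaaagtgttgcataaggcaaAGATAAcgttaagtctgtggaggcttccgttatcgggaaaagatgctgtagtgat
PKLR: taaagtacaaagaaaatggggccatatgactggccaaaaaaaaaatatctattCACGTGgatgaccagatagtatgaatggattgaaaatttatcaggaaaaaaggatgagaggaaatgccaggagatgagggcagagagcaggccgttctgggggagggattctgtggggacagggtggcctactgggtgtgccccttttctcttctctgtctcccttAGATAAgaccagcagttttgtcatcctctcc
SLC6A19: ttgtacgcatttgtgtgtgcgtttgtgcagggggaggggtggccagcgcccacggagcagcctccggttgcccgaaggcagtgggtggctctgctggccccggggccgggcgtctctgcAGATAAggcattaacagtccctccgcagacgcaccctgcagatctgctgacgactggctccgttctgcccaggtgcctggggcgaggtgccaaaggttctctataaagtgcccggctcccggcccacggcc
HEMGN, with the largest fall, held neither of the marked sequences in this window. Other letters that GATA1 or MYC bind were not searched for, so their absence from a promoter is not shown. AGATAA stood 55 bases before the start of MS4A3, 31 before that of PKLR and 131 before that of SLC6A19, and PKLR held CACGTG 197 bases before its start. Of the 9561 tested genes with a promoter, 10.4% held CACGTG and 4.94% held AGATAA or TTATCT in the 300 bases from 250 before to 50 after the start. Promoters were found for 77.2% of the genes, under the 80% needed, so the comparison of these shares between lower and higher genes is void, and a match in these letters is a description and not a binding site.

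**Figure D3:**
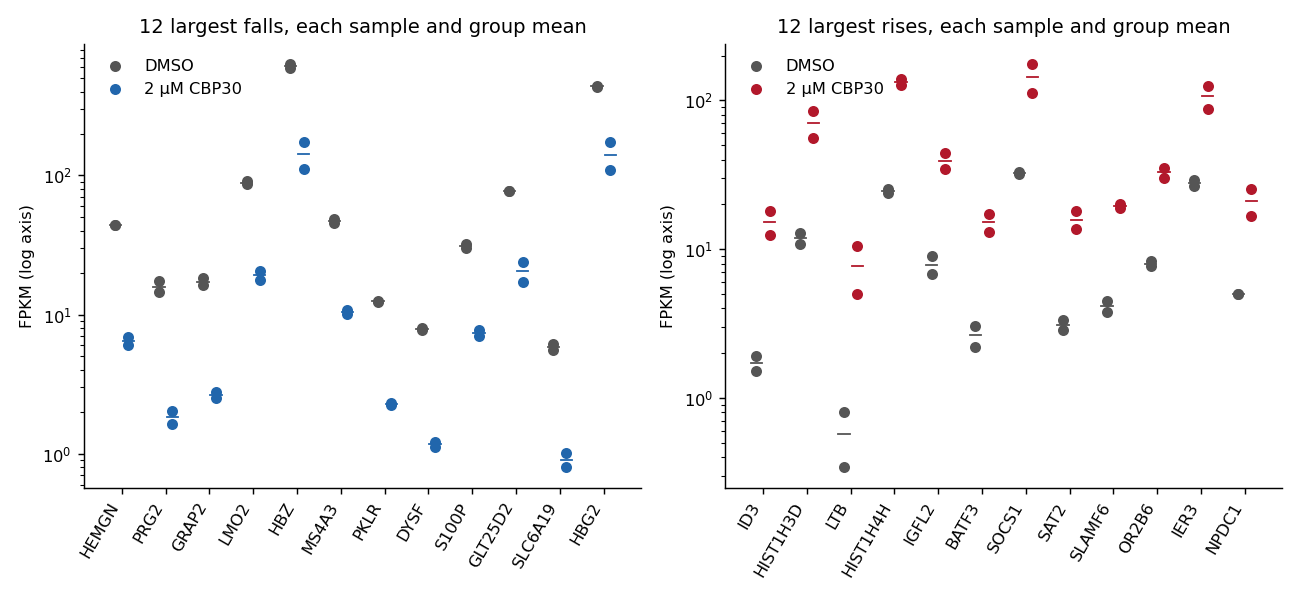
FPKM (log axis) of the 12 genes with the largest fall (left) and the 12 with the largest rise (right) among called genes whose higher group averaged 5 FPKM or more. Points are samples and lines are group means. No treated sample overlaps a DMSO sample in the 24 genes, because the call rule requires it.

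Many erythroid transcription factor genes were lower. Of 22 measured members of the list of erythroid and stem cell factors, 13 were lower (12 in all 3 fits) and 1 was higher, with a median log2 fold change of −0.38. The member that rose was GFI1, a repressor of blood progenitors (0.99, named after its values were seen). LMO2, the bridging protein of the complex that GATA1 forms with TAL1, went from 90.4 and 86.7 FPKM to 20.6 and 17.7 (−2.16 ± 0.074). KLF1, the activator of adult globin and red cell membrane genes, went from 68.8 and 61.9 FPKM to 25.8 and 18.5 (−1.53 ± 0.13, adjusted p = 6.6e-05 by limma). NFE2, which acts at globin enhancers, fell by 1.33 on the log2 scale. GATA1 itself was at 170 and 171 FPKM with DMSO and at 105 and 85.3 FPKM with CBP30 (−0.84 ± 0.096, adjusted p = 0.00035 by limma), a mean of 56.0% of the DMSO level. TAL1 stayed between 16.9 and 18.8 FPKM in the 4 samples. MYB, a factor of blood progenitors, was at 124 and 124 FPKM with DMSO and at 113 and 121 FPKM with CBP30 and did not pass the test (−0.08 ± 0.059, adjusted p = 0.32 by limma).

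Genes of the red cell itself were also lower. Globin genes had the lowest median of all lists, −1.02, and 6 of 8 members were lower, all 6 in all 3 fits. HBZ, the embryonic alpha-like globin, went from 630 and 589 FPKM to 174 and 111 (−2.12 ± 0.18), and HBG2, a fetal beta-like globin, from 442 and 435 to 172 and 110 (−1.66 ± 0.18). HBG1 went from 255 and 255 FPKM to 133 and 92.6 (−1.19 ± 0.15). HBG1 and HBG2 are near-identical copies, so the split of reads between them is uncertain. Replicate 2 lay below replicate 1 in all 3 genes, and the list median was −0.69 in replicate 1 and −1.24 in replicate 2. Of 23 genes for the red cell membrane and blood groups, 13 were lower and 3 higher. The membrane skeleton genes ADD2 (−1.60) and TMOD1 (−1.28) were among those that fell. In this list BCAM rose by 0.59 and ADD1 by 0.26 in all 3 fits. GYPB rose by 0.36 in the fit of all samples but was not called in all 3. Of 12 genes of heme synthesis, 6 were lower, among them UROD (−0.59) and the mitochondrial iron importer SLC25A37 (−0.57), and 1 was higher, ALAD (0.72). Of 13 iron genes, 5 were lower and 0 higher. The iron exporter SLC40A1 went from 19.3 and 19.5 FPKM to 5.40 and 6.95 (−1.52 ± 0.096), and the transferrin receptor gene TFR2 fell by 1.32 and the ferrireductase gene STEAP3 by 1.00.

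In the lists of other blood lineages calls went in both directions. Of 8 megakaryocyte genes 4 were lower, with THBS1 at −1.10, and 1 was higher, the tetraspanin gene CD9 (1.06). Most megakaryocyte genes, 7 of 8, lay below DMSO, with list medians of −0.23 in replicate 1 and −0.30 in replicate 2. The granulocyte and mast cell list was mixed, with 5 genes below and 4 above DMSO. Of 9 granulocyte and mast cell genes 4 were lower, led by PRG2, MS4A3 and S100P, and 3 were higher: KIT (0.62), LYZ (0.30) and CD33 (0.28). The erythropoietin receptor gene EPOR was at 7.06 and 6.63 FPKM with DMSO and at 2.87 and 2.54 FPKM with CBP30 (−1.08 ± 0.083). In the list of BCR-ABL and JAK-STAT5 signaling, 6 of 16 genes were lower, with JAK2 at −0.64 and BCR at −0.55, and 4 were higher. The rises were in SOCS1, SOCS2 (0.87), PIM1 (0.46) and CISH (0.41, named after its values were seen). SOCS1, an inhibitor of JAK kinases, went from 31.8 and 32.9 FPKM to 175 and 112 (2.08 ± 0.16).

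Markers of other cell types were looked at beside these lists. The 10 genes chosen for K562 summed to between 1930 and 1970 FPKM with DMSO and to between 755 and 947 FPKM with CBP30. The T cell marker CD2, the B cell marker MS4A1 and the epithelial marker KRT5 were at 0 in all 4 samples. CD3D was at 15.1 to 27.3 FPKM and EPCAM at 42.5 to 59.7 FPKM in the 4 samples. The 3 T cell markers summed to 16.1 to 19.1 FPKM with DMSO and 22.2 to 29.5 FPKM with CBP30, the B cell markers to 0.892 to 1.02 and 1.36 to 1.52 FPKM, the fibroblast markers to 0.650 to 0.675 and 1.31 to 1.41 FPKM, and the epithelial markers to 58.7 to 59.7 and 42.5 to 56.3 FPKM. The part of these differences in the results was not tested. Fewer cells of a type and less RNA per cell cannot be told apart in bulk samples.

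MYC mRNA was at 338 and 320 FPKM with DMSO and at 148 and 146 FPKM with CBP30, 44.7% of the DMSO mean, and the treated replicates gave log2 fold changes of −1.14 and −1.17. Of 12 measured genes of the MYC network, 8 were lower (6 in all 3 fits) and 0 were higher. PVT1, the long non-coding RNA next to MYC, fell by 1.36 on the log2 scale, and MYCL1, a MYC family member, by 0.86.

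Ribosome biogenesis genes, tRNA synthetases and nucleotide synthesis genes were lower in a large share of their members. Of 46 ribosome biogenesis genes, 31 were lower (30 in all 3 fits) and 0 higher, with a median of −0.32, and −0.27 and −0.35 in the replicates. POLR1A, the largest subunit of RNA polymerase I, went from 18.6 and 18.5 FPKM to 6.56 and 10.4 (−1.08 ± 0.15, adjusted p = 0.0010 by limma). HEATR1 (−0.82) and the helicase gene DDX21 (−0.79) followed. These 3 genes have long transcripts, and replicate 2 showed the smaller fall in each (POLR1A −1.37 in replicate 1 and −0.78 in replicate 2). Of 20 cytosolic aminoacyl-tRNA synthetases, 11 were lower in all 3 fits and 0 higher, with VARS at −0.48, AARS at −0.41 and KARS at −0.40. Of 18 genes of purine and pyrimidine synthesis, 11 were lower (9 in all 3 fits) and 0 higher. CAD, which opens pyrimidine synthesis, went from 26.9 and 27.1 FPKM to 14.8 and 18.96 (−0.65 ± 0.098), and PFAS (−0.61) and GART (−0.60) of purine synthesis fell to a like extent. Of 40 translation factors 8 (20.0%) were lower, a share near the 18.1% over all genes, and 0 higher, with EEF1E1 at −0.45 and EIF3D at −0.44. The elongation factor gene EEF2, among the 5 largest losses in FPKM, went from 1552 and 1513 FPKM to 1290 and 1228 (−0.28 ± 0.089, adjusted p = 0.036 by limma). This call was lost under the replicate block, median centring, no filter, the fit of 4 samples and without either DMSO sample, with log2 fold changes of −0.25 to −0.30.

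The genes of the ribosome itself did not follow those of its assembly. Of 78 cytosolic ribosomal protein genes, 0 were lower and 2 higher (1 in all 3 fits), RPS26 (0.54) and RPL15 (0.33), which have processed copies elsewhere in the genome that may share reads. These short transcripts had a median of 0.39 in replicate 1 and −0.01 in replicate 2, so a direction for the group cannot be given from these samples. The same split between replicates appeared in mitochondrial ribosomal proteins, with medians of 0.10 and −0.19. With all samples 13 of 76 (17.1%) were lower and 3 (3.95%) higher, beside 18.1% and 17.7% over all genes. With the length trend removed 38 were lower and 4 higher. Oxidative phosphorylation subunits had medians of 0.47 and −0.01, and 5 of 79 were lower and 12 higher with all samples, against 19 and 12 with replicate 2 alone. Among those called in all 3 fits, NDUFC2 (0.67) and COX8A (0.56) rose, and CYC1 (−0.31) and NDUFA10 (−0.31) fell. Proteasome subunits stayed mostly uncalled, with 2 of 36 lower and 3 higher.

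**Figure D4:**
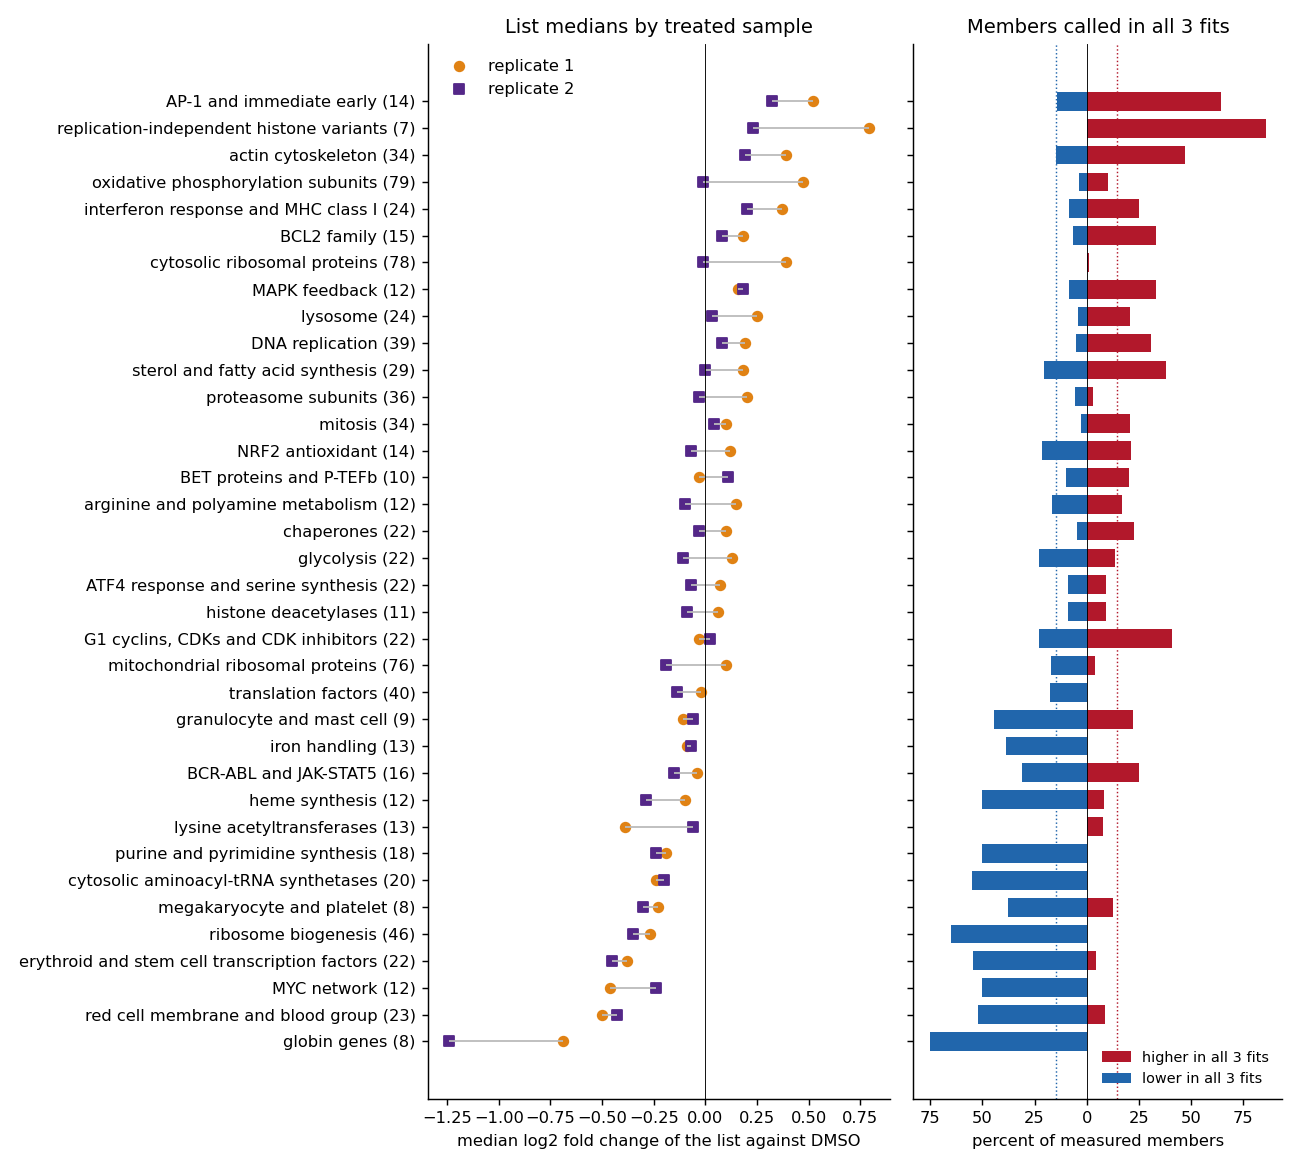
Left, median log2 fold change against DMSO of each gene list in replicate 1 (circles) and replicate 2 (squares), with the number of measured members in parentheses. Right, percent of members called lower (to the left) or higher (to the right) in all 3 fits, with dotted lines at the shares over all genes, 14.9% and 14.3%. Globin genes lie lowest, and replicates differ most in histone variant, globin, oxidative phosphorylation and cytosolic ribosomal protein genes.

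The 12 largest rises were led by ID3. This gene, which blocks the DNA binding of basic helix-loop-helix factors, was at 1.91 and 1.51 FPKM with DMSO and at 18.0 and 12.5 FPKM with CBP30 (2.57 ± 0.15, adjusted p = 9.7e-06 by limma). LTB, the gene of the cytokine lymphotoxin beta, went from 0.800 and 0.341 FPKM to 10.4 and 5.00 (2.41 ± 0.28). BATF3, a factor of the AP-1 family, went from 2.21 and 3.06 FPKM to 17.2 and 13.1 (2.15 ± 0.14). No treated sample of these genes came near the DMSO samples, though the treated replicates themselves differed by more than the DMSO replicates in FPKM. IGFL2, of the family of insulin growth factor-like proteins, went from 6.79 and 8.94 FPKM to 43.98 and 34.6 (2.19 ± 0.13). SAT2 (2.03), the immune receptor gene SLAMF6 (2.01), the olfactory receptor gene OR2B6 (1.91), the early response gene IER3 (1.87) and NPDC1 (1.85) completed the 12 with SOCS1 and the histone genes HIST1H3D (2.45) and HIST1H4H (2.38).

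In amount of mRNA the histone genes led the rises. HIST1H2BK was at 1047 and 1026 FPKM with DMSO and at 3454 and 2621 FPKM with CBP30 (1.54 ± 0.13), and HIST1H1C went from 977 and 927 FPKM to 2606 and 1733 (1.16 ± 0.17). These are genes of histones made in S phase, whose mRNA mostly ends without a poly(A) tail, so a library of polyadenylated RNA holds only part of it. Many of them are near-identical copies, and their reads may be split uncertainly. Of the 7 genes of histone variants that are also made outside S phase, 6 were higher in all 3 fits, with H3F3B at 166 and 172 FPKM with DMSO and 325 and 278 FPKM with CBP30 (0.83 ± 0.08), and H1FX (0.67) and H2AFX (0.48) next. The list median was 0.79 in replicate 1 and 0.23 in replicate 2. The other large gains in FPKM were in TPT1 (0.64), a highly expressed growth-related gene, TMSB10 (1.17), whose product binds actin monomers, and LAPTM4B (1.04), a lysosomal membrane protein gene.

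Cell cycle genes moved in both directions. Of 22 G1 cyclins, CDKs and CDK inhibitors, 5 were lower and 9 higher, all in all 3 fits. The inhibitor genes CDKN1A (0.76), CDKN2D (0.70) and CDKN2C (0.69) rose, and CDKN1A went from 5.20 and 5.91 FPKM to 11.3 and 8.91. CCND1, the gene of cyclin D1, went from 4.41 and 4.31 FPKM to 1.01 and 0.990 (−1.42 ± 0.098), and it was joined by CDK6 (−0.75), RBL1 (−0.40) and CCND2 (−0.36). Genes of DNA replication and mitosis were more often higher than lower. Of 39 replication genes 15 were higher (12 in all 3 fits) and 2 lower. Of 34 mitosis genes 9 were higher (7 in all 3 fits) and 1 lower. The replication genes TK1 (0.58), RPA3 (0.49) and UHRF1 (0.42) rose, as did the mitosis genes AURKB (0.50) and NDC80 (0.38) in all 3 fits. ORC1 (−0.37), MCM4 (−0.19) and BUB1 (−0.27) fell. Of 15 genes of the BCL2 family 5 were higher, with the proapoptotic BAD at 1.14, BNIP3L at 0.61 and PMAIP1 at 0.53, and 1 was lower.

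AP-1 and actin cytoskeleton genes were higher more often than lower. Of 14 AP-1 and immediate early genes, 9 were higher and 2 lower, all in all 3 fits, with a median of 0.42. Besides BATF3 and IER3, JUND rose from 87.1 and 79.2 FPKM to 176 and 104 (0.70 ± 0.19), and FOSL1 fell from 6.84 and 5.99 FPKM to 3.32 and 2.29 (−0.97 ± 0.13). Of 34 actin cytoskeleton genes 17 were higher and 5 lower. The rises were led by CORO1A (1.2), TMSB10 and MYL9 (1.07), and the falls included VCL (−0.53) and TLN1 (−0.43). VCL and TLN1 have long transcripts, and each was called in all 3 fits. Of 12 genes of MAPK feedback 4 were higher, with DUSP5 (0.92), ETV5 (0.55) and SPRY4 (0.34) leading, and 1 was lower, DUSP7 (−0.27). Of 24 interferon response and MHC class I genes 8 were higher (6 in all 3 fits) and 2 lower. IFI6 went from 2.61 and 2.53 FPKM to 13.2 and 7.01 (1.58 ± 0.24), and BST2 rose by 0.75 and HLA-C by 0.70. Reads of HLA-C may be shared with the other class I genes, so its value is uncertain.

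The other metabolic lists held genes that fell and genes that rose. In glycolysis, 6 of 22 genes (27.3%) were lower and 4 (18.2%) higher, beside 18.1% and 17.7% over all genes. The hexokinases HK1 (−0.79) and HK2 (−0.63) and the glucose transporter gene SLC2A1 (−0.55) fell. The enolase gene ENO2 rose from 3.37 and 2.94 FPKM to 8.31 and 8.01 (1.14 ± 0.088), and PKM2, the symbol in the table for the pyruvate kinase gene PKM, rose from 176 and 174 FPKM to 391 and 308 (0.98 ± 0.10). PKLR thus fell while the other pyruvate kinase gene rose. Of 29 genes of sterol and fatty acid synthesis 7 (24.1%) were lower and 11 (37.9%) higher. Fatty acid genes were among the lower, with ACACA at −0.62, FASN at −0.57 and SCD at −0.35, and the sterol genes EBP (0.48), IDI1 (0.44) and MSMO1 (0.44) were among the higher. Of 14 NRF2 genes 4 (28.6%) were lower and 3 (21.4%) higher, not far from the shares over all genes for so short a list. The quinone reductase gene NQO1 rose from 23.2 and 23.8 FPKM to 53.3 and 44.7 (1.02 ± 0.089), and the cystine transporter gene SLC7A11 (−0.69) and SRXN1 (−0.69) fell. ASS1, which makes argininosuccinate, went from 50.9 and 50.7 FPKM to 27.9 and 25.7 (−0.90 ± 0.064), and OAZ2, an inhibitor of polyamine synthesis, rose by 0.73. In that list of 12 genes 3 were lower and 2 higher. In the list of ATF4 targets and serine synthesis, 3 of 22 (13.6%) were lower and 2 (9.09%) higher, PHGDH (0.36) and SHMT2 (0.29). Of 24 lysosomal genes 1 (4.17%) was lower and 5 (20.8%) higher, with NPC2 at 1.24. Of 22 chaperones 1 (4.55%) was lower and 5 (22.7%) higher, with HSP90AA1 at 0.32. In both lists the higher share was near the 17.7% over all genes and the lower share was below 18.1%.

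The genes of the inhibited proteins and of related chromatin readers changed little. CREBBP was at 6.27 and 6.63 FPKM with DMSO and at 4.67 and 7.35 FPKM with CBP30, and EP300 at 7.64 and 8.09 and at 3.92 and 7.66 FPKM. Neither passed the test, and in both genes only replicate 1 lay well below the DMSO samples. Of 13 lysine acetyltransferases 0 were lower and 1 was higher, KAT2B (0.28). Of 11 histone deacetylases 1 (9.09%) was lower, HDAC7 (−0.42), and 2 (18.2%) were higher, HDAC1 (0.45) and HDAC10 (0.37). Of 10 BET proteins and P-TEFb genes 2 (20.0%, 1 in all 3 fits) were lower and 3 (30.0%, 2 in all 3 fits) higher. Over all genes the shares were 18.1% lower and 17.7% higher. HEXIM1, an inhibitor of P-TEFb, rose by 0.47. TET1, a DNA demethylase gene, went from 2.55 and 2.58 FPKM to 1.14 and 2.04 (−0.48 ± 0.14, adjusted p = 0.026 by limma) and was not called in all 3 fits. GAPDH was at 1641 and 1649 FPKM with DMSO and at 1738 and 1473 FPKM with CBP30 and did not pass the test (−0.04 ± 0.11), though with the length trend removed it was called lower (−0.18, adjusted p = 0.0043 by limma).

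The direct comparison of 5 µM with 2 µM CBP30 asks which of these genes had reached their level at the lower concentration. At 5 µM 2967 genes (23.9%) were lower and 2462 (19.9%) higher than at 2 µM. Without replicate 1 or replicate 2 of 5 µM CBP30 these counts came to 1183 and 852 or to 1048 and 738, and without replicate 2 of 2 µM CBP30 to 4463 and 3748. HEMGN was at 4.82 and 5.68 FPKM at 5 µM, little below its level at 2 µM (−0.25, adjusted p = 0.039 by limma). ID3 (15.6 and 14.5 FPKM), HIST1H2BK (3047 and 3070 FPKM) and LAPTM4B (821 and 835 FPKM) lay between their 2 µM samples. Each of these values lay below replicate 1, which carried the length trend, and above replicate 2 (12.5, 2621 and 727 FPKM). The 95% intervals of the log2 difference were −0.34 to 0.34 for ID3, −0.28 to 0.32 for HIST1H2BK and −0.22 to 0.26 for LAPTM4B. HBG2, at 122 and 135 FPKM (interval −0.50 to 0.30), and TFPI, an inhibitor of blood clotting, at 245 and 248 FPKM (−0.16 to 0.22), were not called between concentrations either. HBG2 at 5 µM also lay above replicate 2 of 2 µM (110 FPKM) and below replicate 1 (172 FPKM). The part that the length trend of replicate 1 has in these intervals was not tested.

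Other genes went on falling. GATA1 was at 53.5 and 52.7 FPKM at 5 µM, a further log2 fold change of −0.82, and MYC at 81.7 and 80.9 FPKM (−0.85). LMO2 (−1.16), KLF1 (−1.28) and MS4A3 (−1.86) fell further. S100P was at 0.225 and 0.482 FPKM at 5 µM against 7.76 and 6.97 FPKM at 2 µM, a difference of −2.63. ASS1 was at 4.99 and 4.52 FPKM (−2.27), and ACSM3, a mitochondrial acyl-CoA synthetase gene, went from 454 and 471 FPKM with DMSO to 146 and 156 FPKM at 2 µM and to 46.0 and 43.7 FPKM at 5 µM. MYB, uncalled at 2 µM, was at 87.3 and 88.3 FPKM at 5 µM (−0.41, adjusted p = 0.0019 by limma).

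Some genes stood at their peak with 2 µM. IGFL2 fell back to 11.1 and 10.7 FPKM at 5 µM (−1.75, adjusted p = 0.00011 by limma) and BATF3 to 5.50 and 6.09 FPKM (−1.24). PHGDH, the enzyme that opens serine synthesis, was at 216 and 217 FPKM with DMSO, at 316 and 244 FPKM with 2 µM and at 136 and 131 FPKM with 5 µM, so it lay above DMSO at the lower and below it at the higher concentration. SHMT2 took the same course, from 290 and 290 FPKM to 380 and 333 and then to 218 and 212. Of the 22 ATF4 and serine synthesis genes, 19 were lower at 5 µM than at 2 µM and 1 higher. The opposite course was seen in SCD, a fatty acid desaturase gene, which was at 141 and 147 FPKM with DMSO, at 102 and 124 FPKM with 2 µM and at 203 and 207 FPKM with 5 µM. Of the 29 sterol and fatty acid genes, 17 were higher at 5 µM than at 2 µM and 2 lower.

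**Figure D5:**
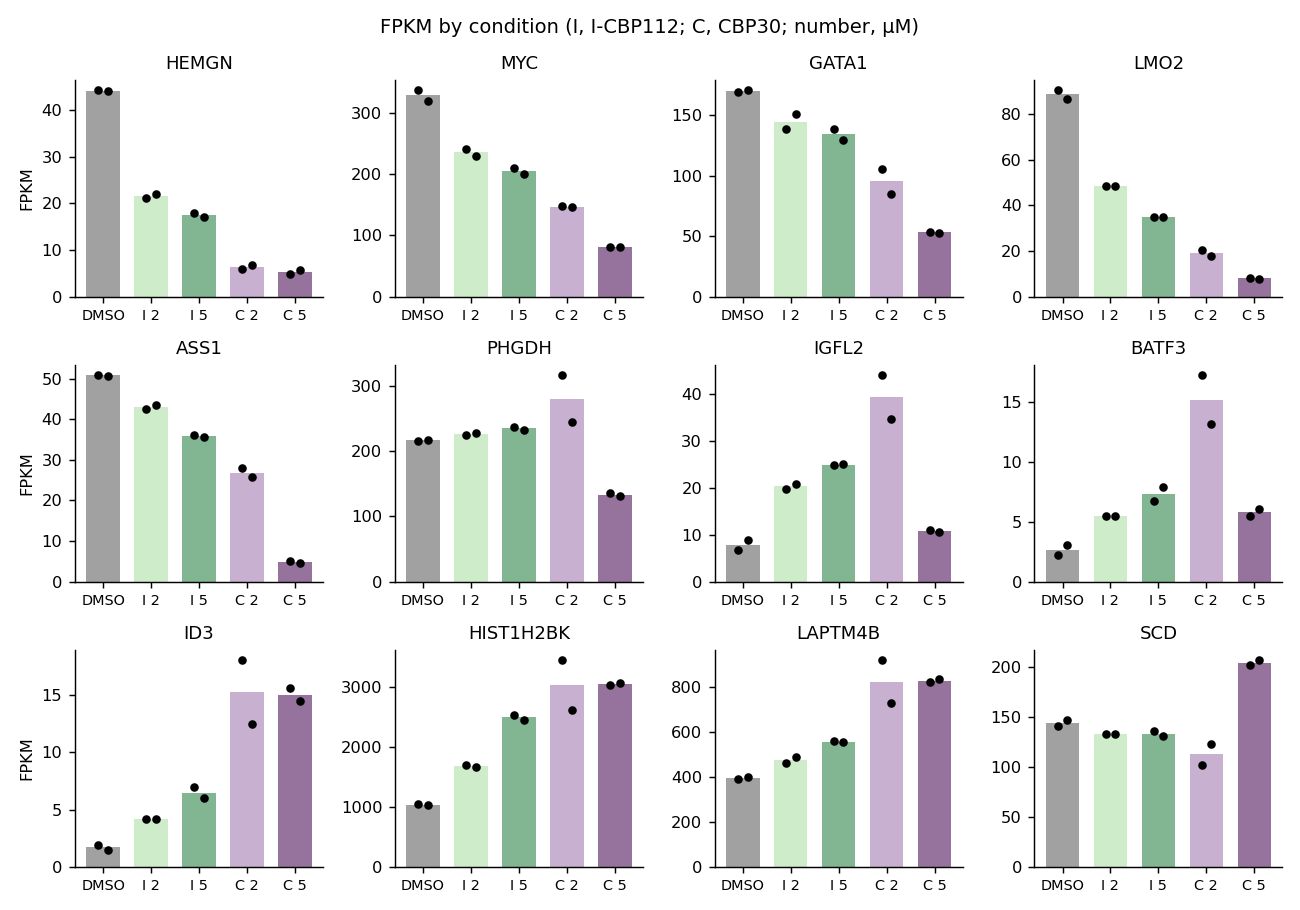
FPKM of 12 genes in the 5 conditions: DMSO, I-CBP112 (I) at 2 and 5 µM and CBP30 (C) at 2 and 5 µM. Bars are means of 2 samples and points are samples. HEMGN and ID3 are at about the same level at both CBP30 concentrations, ASS1 and LMO2 fall further at 5 µM, PHGDH, IGFL2 and BATF3 are highest at 2 µM, and SCD is highest at 5 µM.

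The lists for protein synthesis also differed between concentrations. Of 78 cytosolic ribosomal protein genes, 76 were lower at 5 µM than at 2 µM and 0 higher, with a median log2 difference of −0.58, and with replicate 2 as the only 2 µM sample 76 were lower with a median of −0.38. With the length trend removed 69 were lower, with a median of −0.25. Of 76 mitochondrial ribosomal proteins 54 were lower, and 34 with the length trend removed. Ribosome biogenesis genes were lower in 30 of 46, translation factors in 27 of 40 and tRNA synthetases in 15 of 20, and each of these counts stayed between 26 and 33, or 15 and 18 for the synthetases, in the same alternatives.

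The direct comparison with I-CBP112 at the same concentration asks where the compounds differed. Of all genes, 1304 (10.5%) were lower and 1136 (9.17%) were higher with 2 µM CBP30 than with 2 µM I-CBP112. Without replicate 1 or replicate 2 of I-CBP112 the counts came to 302 and 197 or to 365 and 289, and without replicate 2 of CBP30 to 3380 and 3725. HEMGN was at 21.2 and 22.1 FPKM with I-CBP112, between its levels with DMSO and CBP30, and the difference between the compounds was −1.60 ± 0.085 (adjusted p = 3.8e-05 by limma). MYC was at 241 and 231 FPKM (−0.68 ± 0.061 between compounds), GATA1 at 138 and 151 FPKM (−0.60 ± 0.096) and LMO2 at 48.5 and 48.3 FPKM (−1.30 ± 0.074). CCND1 was at 3.29 and 3.28 FPKM with I-CBP112, closer to DMSO than to CBP30 (−1.10 ± 0.098). Among the rises, LTB was at 0.908 and 0.460 FPKM with I-CBP112, within or just above the DMSO samples (2.31 ± 0.28 between compounds), and SOCS1 was at 53.4 and 52.0 FPKM (1.40 ± 0.16).

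Some genes were not told apart between the compounds at 2 µM. KIT was at 5.33 and 5.19 FPKM with I-CBP112 and at 4.63 and 5.97 FPKM with CBP30, with a 95% interval of −0.24 to 0.24 for the log2 difference. The intervals were −0.12 to 0.13 for LYZ and −0.20 to 0.19 for SPRY4, genes picked here for their small difference. HBG1, at 142 and 167 FPKM with I-CBP112, was not called (−0.47 ± 0.15, adjusted p = 0.058 by limma). Its unadjusted 95% interval, −0.81 to −0.13, lay wholly on the side of lower values with CBP30, so equal levels are not shown. The near-identical HBG2 was called lower with CBP30 (−0.75 ± 0.18, adjusted p = 0.022 by limma). Of the 22 erythroid factor genes, 13 were lower with CBP30 than with I-CBP112 and 1 was higher, and LMO2 had the largest difference among them. Ribosome biogenesis genes were lower with CBP30 than with I-CBP112 in 20 of 46 and higher in 0, tRNA synthetases in 9 of 20, and cytosolic ribosomal proteins in 0 of 78.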

How the data were processed

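The 10 samples are K562 cultures, 2 per condition, called biological replicates in the labels. The authors deposited FPKM values, 1 column per sample, from stranded libraries of polyadenylated RNA read as single reads of 50 bases. The submitters' processing notes name TopHat2 2.0.10, Bowtie 1.0.0, SAMtools 0.1.19, Cufflinks 2.2.1 and Cuffnorm on hg19, and the annotation is not given in the sources used here. Each column was matched to its sample by name.

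The limma package (3.58.1, under R 4.3.3) was used to fit log2(FPKM + 1) in all 5 conditions together, with lmFit and with eBayes allowing a trend, with 5 residual and 3.85 prior degrees of freedom. Genes with a mean under 0.5 FPKM and small RNA genes were left out, and p-values were adjusted over all 12392 genes by Benjamini-Hochberg. In these data every gene under 0.05 also had both treated samples beyond both DMSO samples. Transcript lengths came from GENCODE on GRCh37, for 94.8% of the genes, and the length trend of each sample was removed by a loess curve. Tested on simulated data for 2 µM CBP30 against DMSO, the fit called 198 of 200 changed genes and 12 others. The error rate of the calls in the K562 samples was not tested. The set called in all 3 fits was added after the data were seen. Python 3.11.15 and pandas 2.3.3 served for tables and plots.

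Named genes are those the study names, the 12 largest falls and rises in log2 fold change among called genes with at least 5 FPKM that were also called with the length trend removed, the 5 largest in FPKM, up to 3 called members per direction in each of 36 lists, and a gene listed at 0 in 1 sample only. Some genes that this rule covers are not reported here. The members and lists were chosen with earlier results of these data known. The alternatives were a pseudocount of 0.1, other filters, quantile normalization, median centring, no variance trend in eBayes, 4 samples only, the replicate block, the length correction and leaving out each sample. Promoters came from RefSeq by symbol for 8646 genes and by current symbol for 915. FPKM hold no counts, so depth is unknown and no counting error is given.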

Additional observations from a re-analysis of the deposited data

How the results depend on the processing

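Without read counts, the precision rests on 2 samples per condition, and the relative depth of the libraries, judged from genes seen in few of them, ranged from 0.943 to 1.05. The count of lower and higher genes with 2 µM CBP30 stayed within 1.5 times the reported one under a pseudocount of 0.1, no filter, a mean of at least 5 FPKM, median centring (1976 and 2437), quantile normalization, no variance trend in eBayes, small RNA genes kept, and removal of the length trend (2644 and 2662). A fit of only the 4 samples compared gave 552 and 544. Leaving out a sample gave 1128 to 3675 lower and 1079 to 3902 higher genes, 1048 to 4463 and 738 to 3748 between 5 and 2 µM, and 302 to 3380 and 197 to 3725 against I-CBP112. In each comparison the highest counts came without replicate 2 of 2 µM CBP30, where replicate 1 with its length trend is the only treated sample.

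With the replicate number as a block 2164 genes were lower and 2112 higher, and 2627 and 2646 with the length trend removed as well. The direct comparisons under the block gave 2861 and 2357 between 5 and 2 µM, and 1146 and 979 against I-CBP112. Deviations of same-numbered DMSO and 2 µM CBP30 samples correlated at 0.0935, and over all pairs of conditions from −0.283 to 0.154, so the numbers were not taken as pairs.

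Of the 173 named genes that were called, 0 changed direction in any alternative. The call rule fixes this in advance, except under median centring, quantile normalization and removal of the length trend, which rescale the values. In the fit of 4 samples 87 were no longer called, 44 without DMSO replicate 1 and 48 without DMSO replicate 2. The uncalled CREBBP turned from −0.11 to 0.11 with the length trend removed, with or without the block, and lay between −0.39 and 0.17 with 1 sample left out, the latter without replicate 1 of CBP30. The uncalled GAPDH, at −0.04, lay between −0.16 and 0.08 with 1 sample left out, the latter without replicate 2 of CBP30, and was called lower with the length trend removed (−0.18, with or without the block) and under quantile normalization (−0.21). The cause was not tested.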

Other observations

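Genes of histones made in S phase rose beyond those that the rules named. Of 46 measured genes whose symbols begin with HIST and a cluster number, a group chosen after its values were seen, 26 were higher (15 in all 3 fits) and 0 were lower, with a median log2 fold change of 0.71, beside 0.01 over all genes tested. The medians were 0.70 in replicate 1 and 0.63 in replicate 2. HIST1H2AC went from a DMSO mean of 103 FPKM to 364 and 302 FPKM with 2 µM CBP30, HIST1H2BD from a mean of 37.4 FPKM to 147 and 118 FPKM, and HIST2H2BE from a mean of 16.0 FPKM to 61.9 and 56.1 FPKM. Their median transcript length was 490 bases, at the short end of the trend seen in replicate 1, and replicate 2 showed a rise of nearly the same size. Library construction kept RNA with a poly(A) tail, and the values therefore describe the polyadenylated part of these transcripts.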
